A study of Mus musculus with 10 samples.

Results

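*Hnf4a*, *Hhex*, *Otx2*, *Lhx1*, *Gsc* and *Hesx1* encode DNA-binding regulators of endoderm and of anterior patterning, and their promoters were examined for trimethylation of histone H3 at lysine 4 (H3K4me3), a mark of promoters. The 6 genes were chosen by name, with earlier results of these data known, from 21755 protein-coding genes, and the rule itself used no measured value. Across the libraries *Hhex* was marked in 10 of 10 and stood highest in the double positive population, *Otx2* was marked in the OCT4 single positive population alone, *Lhx1* was marked in every double positive library at low signal, *Hnf4a* was marked in 2 libraries, and *Gsc* and *Hesx1* in none.

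The study cultured naive extra-embryonic endoderm (nEnd), a mouse cell culture model of the primitive endoderm (PrE) of the blastocyst, and asked which promoters carry the mark in its subpopulations. All cells were untreated nEnd of the OCT4-mCherry reporter line, in which OCT4 protein carries a red fluorescent tag, grown on mouse embryonic fibroblasts in RACL medium with Activin A, CHIR99021 and LIF. They were sorted on OCT4-mCherry and on an APC-labelled antibody to PDGFRA, a surface receptor of PrE, into OCT4 single positive cells (Oct4+ nEnd, 4 libraries), double positive cells (DP nEnd, 3 libraries) and PDGFRA single positive cells (Pdgfra+ nEnd, 3 libraries). The assay was CUT&Tag, where Tn5 transposase is tethered to antibody-bound H3K4me3 and inserts sequencing adapters into the DNA beside it. A single reporter line was used. The study describes its replicates as biological and gives 3 for its H3K4me3 tracks, whereas 4 Oct4+ nEnd libraries are used here. The labels do not say whether the replicates came from separate cultures, and p-values measure the spread between these libraries.

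HNF4A is a nuclear receptor of the hepatocyte nuclear factor (HNF) group that drives visceral endoderm and liver genes such as apolipoproteins. The other 5 proteins bind DNA through a homeodomain. HHEX is made in the PrE and then in the anterior visceral endoderm (AVE), and is later needed for liver and thyroid. OTX2 acts in the epiblast, the AVE and the forebrain, LHX1 is a LIM-homeodomain protein of the AVE, the node and the kidney, GSC is a homeodomain repressor of the gastrula organizer, and HESX1 is a repressor of the anterior neural plate and the pituitary.

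A promoter window reached from 1000 bp before to 100 bp after a transcription start site (TSS) on GRCm38, and a gene with a peak in any of its windows (1 bp was enough) counted as marked in that library. Each peak carries a total signal (coverage summed over the peak) and a highest coverage. Since coverage was not scaled between libraries, each value was turned into a percentile. This is its rank from the lowest, as a percent of the number of peaks in the library, with tied peaks given their mean rank. A library without a promoter peak was given percentile 0 and width 0. The libraries held from 3477 to 10545 peaks, with the fewest in Oct4+ nEnd replicate 3 and the most in Pdgfra+ nEnd replicate 1. They marked from 18.5% to 51.2% of all genes, and their median highest coverage ran from 22 in Oct4+ nEnd replicate 3 to 144 in DP nEnd replicate 2. Sequencing depth is unknown. The genes of the sort followed the gates, with a *Pou5f1* (OCT4) peak in 4 of 4 Oct4+ nEnd libraries, 3 of 3 of DP nEnd, 0 of 3 of Pdgfra+ nEnd, and a *Pdgfra* peak in 1 of 4, 3 of 3 and 3 of 3. Each of 6 DP nEnd or Pdgfra+ nEnd libraries marked all 8 PrE markers examined, whereas those of Oct4+ nEnd marked from 0 to 5. Of 8 fibroblast markers 7 had no peak in any library, against 46.5% of all genes, collagen genes *Col1a1*, *Col1a2* and *Col3a1* among the 7. *Twist1* had a peak in 5 of 10, with percentiles of at most 13.0. Of 7 epiblast markers the Oct4+ nEnd libraries marked 7, those of DP nEnd 5 to 7 and those of Pdgfra+ nEnd 1 to 2, and of 7 trophectoderm markers they marked 1, 3 to 4 and 3 to 4.

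The promoters of the 6 genes differ widely in CpG content, and 1 window of each is printed here so that the windows that were marked can be set against those that were not. Each runs from 250 bp before to 50 bp after a RefSeq start on GRCm38.p6, 5′ to 3′ on the gene's strand, in lower case with every CG dinucleotide in capitals. The windows are chr19:37434591-37434890 on the plus strand for *Hhex*, chr11:84525485-84525784 on the minus strand for *Lhx1*, chr12:104473187-104473486 on the minus strand for *Gsc*, chr14:48662685-48662984 on the minus strand for *Otx2*, chr2:163506607-163506906 on the plus strand for *Hnf4a* and chr14:27000112-27000411 on the plus strand for *Hesx1*. Of the 4 RefSeq windows of *Otx2* the one shown was overlapped in the most libraries, and of the 2 of *Hnf4a* it is the upstream one.
Hhex: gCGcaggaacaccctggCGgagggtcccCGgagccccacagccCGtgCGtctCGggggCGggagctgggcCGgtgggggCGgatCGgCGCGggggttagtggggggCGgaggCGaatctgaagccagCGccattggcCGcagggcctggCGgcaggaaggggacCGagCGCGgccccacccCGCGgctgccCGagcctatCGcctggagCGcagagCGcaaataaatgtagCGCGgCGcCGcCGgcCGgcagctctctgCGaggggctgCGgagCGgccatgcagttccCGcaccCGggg
Lhx1: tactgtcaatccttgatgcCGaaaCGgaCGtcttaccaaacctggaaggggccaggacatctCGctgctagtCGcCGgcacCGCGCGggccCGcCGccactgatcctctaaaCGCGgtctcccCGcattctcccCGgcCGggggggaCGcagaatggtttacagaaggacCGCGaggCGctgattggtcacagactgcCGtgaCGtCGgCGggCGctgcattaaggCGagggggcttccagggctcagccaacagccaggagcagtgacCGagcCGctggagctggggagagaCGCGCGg
Gsc: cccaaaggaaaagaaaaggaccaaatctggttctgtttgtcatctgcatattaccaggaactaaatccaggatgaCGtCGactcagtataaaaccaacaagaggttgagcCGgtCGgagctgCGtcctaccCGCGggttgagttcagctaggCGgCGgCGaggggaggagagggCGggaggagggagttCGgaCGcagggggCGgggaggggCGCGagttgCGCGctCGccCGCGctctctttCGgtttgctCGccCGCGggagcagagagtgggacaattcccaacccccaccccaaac
Otx2: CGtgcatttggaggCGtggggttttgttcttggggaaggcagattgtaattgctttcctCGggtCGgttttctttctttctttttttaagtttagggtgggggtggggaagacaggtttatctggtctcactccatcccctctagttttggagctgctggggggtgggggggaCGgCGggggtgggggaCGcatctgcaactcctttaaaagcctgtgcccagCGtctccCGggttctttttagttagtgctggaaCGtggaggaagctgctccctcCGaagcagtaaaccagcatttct
Hnf4a: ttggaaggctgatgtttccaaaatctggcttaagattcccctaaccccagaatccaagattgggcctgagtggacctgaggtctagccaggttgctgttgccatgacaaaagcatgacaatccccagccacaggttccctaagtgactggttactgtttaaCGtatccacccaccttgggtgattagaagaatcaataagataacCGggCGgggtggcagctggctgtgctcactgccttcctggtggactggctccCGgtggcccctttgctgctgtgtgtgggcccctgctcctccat
Hesx1: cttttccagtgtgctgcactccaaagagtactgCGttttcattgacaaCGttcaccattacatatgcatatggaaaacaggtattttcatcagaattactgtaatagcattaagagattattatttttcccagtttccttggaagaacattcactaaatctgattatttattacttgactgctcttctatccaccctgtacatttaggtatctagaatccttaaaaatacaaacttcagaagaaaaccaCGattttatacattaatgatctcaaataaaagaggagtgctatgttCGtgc

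The *Hhex* window held 37 CG dinucleotides, more than 94.4% of 32851 RefSeq promoter windows, and was overlapped by a peak in 10 libraries. The *Lhx1* window held 31, was richer than 89.4% of windows, and was overlapped in 3 DP nEnd and 1 Pdgfra+ nEnd libraries. The *Gsc* window held 25, more than 81.6% of windows, and was overlapped in none. Across all windows with 25 or more CG dinucleotides, 89.1% were overlapped in at least 1 library, and *Gsc* was not among them. The *Otx2* window held 11 and was overlapped in 3 Oct4+ nEnd libraries, and 28.3% of windows with 5 to 14 were overlapped in any library. *Hnf4a* and *Hesx1* held 4 each, a class in which 4.35% of windows were overlapped in any library, and the *Hnf4a* window was one of those. The *Otx2* window at chr14:48665060-48665359, not printed, held 16.

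Short motifs were searched on both strands of all 10 RefSeq windows of the 6 genes, with positions counted from the start site. CCAAT, the box bound by NF-Y, was found in the *Hhex* window at -119, in the *Lhx1* window at -68 and in the upstream *Hnf4a* window at -192, each on the opposite strand, and in 2 windows not printed, and 37.4% of all windows hold it. The motif AGATAA, which GATA factors bind and 11.2% of windows hold, was found at -52 in the upstream *Hnf4a* window and, on the opposite strand, at -133 in the printed *Otx2* window. TATAAA was found at -164 in *Gsc*, at 3 in *Hesx1* on the opposite strand, and at -192 in an *Otx2* window not printed, and 13.6% of windows hold it. TAATCC, a core bound by OTX and GSC type homeodomains and held by 7.06% of windows, was found once, at -211 on the opposite strand of the *Otx2* window with 16 CG dinucleotides, where it overlaps an AGATAA match at -208. The octamer ATGCAAAT, the HNF4 half-site motif CAAAGTCC and the SOX motif ACAAAG, held by 1.74%, 1.42% and 18.7% of windows, had no match in these windows.

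**Figure D1:**
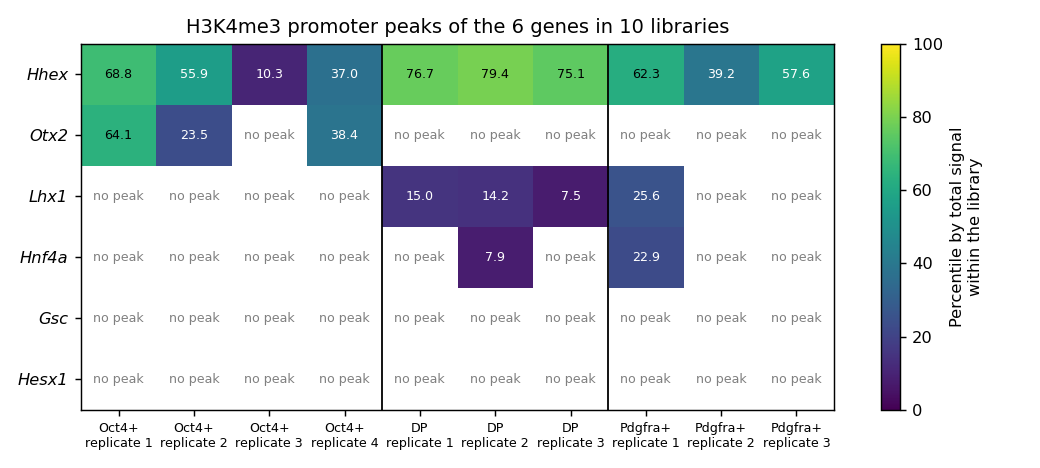
Percentile by total signal of the promoter peak of each gene (rows) in each of the 10 libraries (columns, grouped by population), with the colour scale in percent and "no peak" where none was called. *Hhex* was filled in all 10 libraries, *Otx2* in 3 Oct4+ nEnd libraries, *Lhx1* in 3 DP nEnd and 1 Pdgfra+ nEnd libraries, and *Gsc* and *Hesx1* in none.

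The libraries marked from 1 to 3 of the 6 genes. Oct4+ nEnd replicates 1, 2 and 4 marked *Hhex* and *Otx2*, and replicate 3 marked *Hhex* alone. DP nEnd replicates 1 and 3 marked *Hhex* and *Lhx1*, and replicate 2 also marked *Hnf4a*. Pdgfra+ nEnd replicate 1 marked *Hhex*, *Lhx1* and *Hnf4a*, while replicates 2 and 3 marked *Hhex* alone. *Gsc* and *Hesx1* shared the absence of a peak with 46.5% of all genes, and *Hhex* shared a peak in every library with 16.6%.

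*Hhex* was marked in every library and was the highest of the 6 genes by total signal in all but Oct4+ nEnd replicate 4, where it stood at percentile 37.0 and *Otx2* at 38.4. The gene (ENSMUSG00000024986.12) lies at chr19:37434810-37440731 on the plus strand, with 2 annotated TSS that are 1929 bp apart. Its peak covered the first TSS in all 10 libraries, and the point of highest coverage lay from -126 to 573 bp relative to it. The same peak also overlapped the promoter window of Gm38345, an annotated transcript of uncertain status, in all 10 libraries.

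In Oct4+ nEnd the *Hhex* percentile by total signal was 68.8, 55.9, 10.3 and 37.0 in replicates 1 to 4. In DP nEnd it was 76.7, 79.4 and 75.1. In Pdgfra+ nEnd it was 62.3, 39.2 and 57.6. All 3 DP nEnd libraries lay above all 7 others, and Oct4+ nEnd and Pdgfra+ nEnd overlapped. The mean was 77.1 ± 2.17 in DP nEnd (SD, n = 3), 53.0 ± 12.2 in Pdgfra+ nEnd (SD, n = 3) and 43.0 ± 25.4 in Oct4+ nEnd (SD, n = 4). Oct4+ nEnd replicate 3, the library with the fewest peaks, gave the lowest value, and without it the Oct4+ nEnd mean was 53.9 ± 16.0 (SD, n = 3).

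Oct4+ nEnd was lower than DP nEnd by a mean of 34.1 percentile points, which did not pass the test (exact two-sided permutation test, p = 0.0571; Benjamini-Hochberg adjusted p = 0.541 over 21755 genes). DP nEnd was higher than Pdgfra+ nEnd by 24.1 points (exact permutation p = 0.10, the smallest that 3 against 3 libraries allow). The difference for Oct4+ nEnd minus Pdgfra+ nEnd was -10.0 points (exact permutation p = 0.60), and later differences between populations are likewise the first named minus the second. Over the 3616 genes marked in all libraries the median difference was -6.89 points for Oct4+ nEnd minus DP nEnd and 1.69 for DP nEnd minus Pdgfra+ nEnd. A percentile in every DP nEnd library above every Oct4+ nEnd library was seen in 12.5% of all genes and in 24.4% of those always marked. For DP nEnd above Pdgfra+ nEnd the shares were 1.43% and 5.37%. Of the always marked genes 0.968%, or 35, stood above both other populations as *Hhex* did.

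Counted from the top of each library, the *Hhex* peak ranked 1893, 1820 and 1886 by total signal in DP nEnd. It ranked 2854, 3576, 3121 and 3079 in Oct4+ nEnd replicates 1 to 4, and 3980, 3962 and 3309 in Pdgfra+ nEnd. These ranks are given as values and order no population, since the lists differ in length and no rank in Oct4+ nEnd replicate 3 can exceed 3477. With the 3477 strongest peaks of each library alone, *Hhex* was marked in 7 of 10, which left out Oct4+ nEnd replicate 2 and Pdgfra+ nEnd replicates 1 and 2. There Oct4+ nEnd was lower than DP nEnd by 36.4 points (exact permutation p = 0.0286, unadjusted and the smallest possible). Oct4+ nEnd was higher than Pdgfra+ nEnd by 8.30 points (exact permutation p = 0.171, unadjusted). In both differences the libraries left without the peak count as 0.

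By highest coverage, which does not grow with peak width, *Hhex* had percentiles of 64.8, 36.9, 15.0 and 16.1 in Oct4+ nEnd, 70.9, 76.9 and 59.7 in DP nEnd, and 50.1, 10.6 and 44.8 in Pdgfra+ nEnd. For these same peaks DP nEnd had the highest mean, overlapping with Oct4+ nEnd replicate 1. The mean difference was -35.9 points for Oct4+ nEnd minus DP nEnd (exact permutation p = 0.0857). It was 34.0 points for DP nEnd minus Pdgfra+ nEnd (exact permutation p = 0.10, the smallest possible). The peak was 4397, 4751, 2748 and 3843 bp wide in Oct4+ nEnd, 4585, 5497 and 5059 bp in DP nEnd, and 5122, 2058 and 4057 bp in Pdgfra+ nEnd. Widths overlapped between populations and none of the 3 differences passed (exact permutation p from 0.114 to 0.886). The narrowest peak, in Pdgfra+ nEnd replicate 2, came from the library with the narrowest peaks, with a median of 2205 bp.

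**Figure D2:**
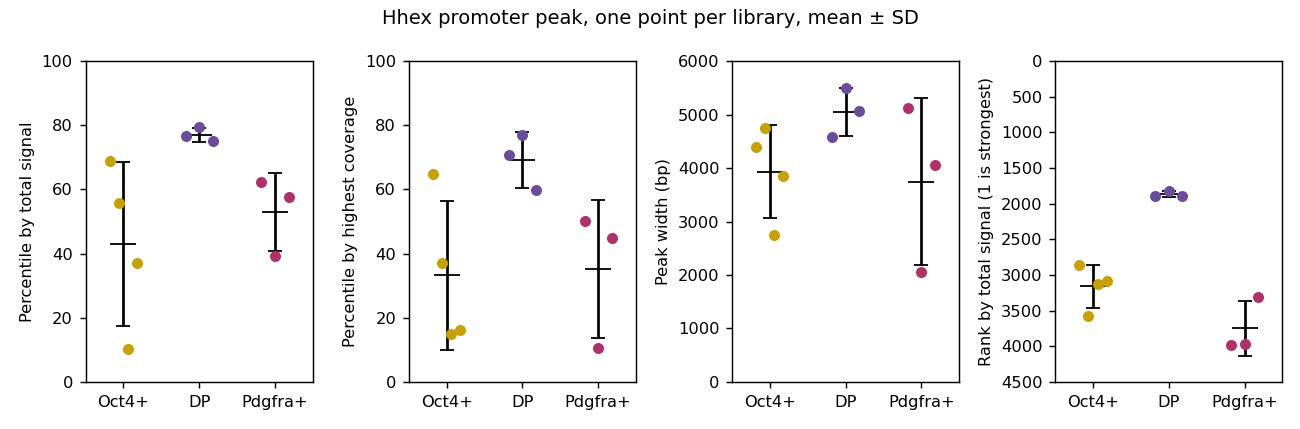
The *Hhex* promoter peak in each library (points) by percentile by total signal, percentile by highest coverage, width in bp and rank by total signal (axis reversed, 1 is strongest), with the mean and SD of each population in black. The 3 DP nEnd libraries lie above all others by percentile of total signal, widths overlap, and ranks come from lists of 3477 to 10545 peaks.

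*Otx2* was marked in Oct4+ nEnd and in neither other population. The gene (ENSMUSG00000021848.16) lies at chr14:48657677-48673819 on the minus strand, with 10 TSS spread over 11887 bp. Oct4+ nEnd replicate 1 had a single peak of 10160 bp over 9 of them, at percentile 64.1 by total signal and 10.5 by highest coverage. Replicate 2 had a peak of 2820 bp at percentile 23.5 and a second of 5802 bp at percentile 0.642. Replicate 4 had a peak of 4138 bp at percentile 38.4. Replicate 3, DP nEnd and Pdgfra+ nEnd had none.

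The shape of the *Otx2* signal differed between the 3 libraries. In replicate 1 the peak was wide (width percentile 96.2) and low, with a highest coverage of 32 against a library median of 59. In replicate 2 the stronger peak was narrow (width percentile 26.9) and reached a coverage of 32 against a median of 52. In replicate 4 the peak was of middle width (width percentile 50.5) and reached 33 against a median of 38. It covered 62.9% of the gene in replicate 1, and peaks covered 53.4% in replicate 2 and 25.6% in replicate 4. The 2 TSS nearest the 3′ end, at 48661932 and 48662872, were in the marked windows in 3 of 4 Oct4+ nEnd libraries. The 7 TSS between 48665106 and 48667644 were marked in replicates 1 and 2, and the most upstream one, at 48673819, in no library. In replicates 1 and 2 the peaks also overlapped the promoter window of Otx2os1, a long noncoding RNA gene, so the wide part of the signal cannot be given to *Otx2* alone.

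With 3 of 4 against 0 of 3 libraries, presence of the *Otx2* peak did not pass the test against DP nEnd or against Pdgfra+ nEnd (Fisher's exact test, two-sided, p = 0.143 for each). The percentile by total signal averaged 31.5 ± 26.9 (SD, n = 4) in Oct4+ nEnd, against 0 in both others (exact permutation p = 0.143; adjusted p = 0.779 and 0.782). By highest coverage it averaged 16.1 ± 15.6 (SD, n = 4), also against 0 in both others (exact permutation p = 0.143). The library without the peak, Oct4+ nEnd replicate 3, has the fewest peaks (3477) and the lowest median coverage (22) of all, and the part of this in the missing peak was not tested. With the 3477 strongest peaks of each library alone, *Otx2* was marked in 2 of 4 Oct4+ nEnd libraries and in no other. The difference by total signal from either population fell to 4.73 points (exact permutation p = 0.429). Over replicates 1, 2 and 4 of the full lists the mean by total signal was 42.0 ± 20.5 (SD, n = 3). A peak in these 3 libraries and in no DP nEnd library was found for 0.455% of all genes, and in no Pdgfra+ nEnd library for 0.602%. A peak in at least 3 Oct4+ nEnd libraries and in none of the 6 others was found for 0.391% of genes, or 85 genes. The consensus list of Oct4+ nEnd holds the *Otx2* region at 10160 bp, with the start and end of the replicate 1 peak, and the other 2 consensus lists do not. Which libraries went into each consensus list is not given in the sources used here, and the list is no separate support for the peak.

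*Lhx1* was marked in every DP nEnd library and in no Oct4+ nEnd library. The gene (ENSMUSG00000018698.15) lies at chr11:84518284-84525535 on the minus strand, with 4 TSS over 3468 bp. Its peak was 3545, 4295 and 4225 bp wide in DP nEnd replicates 1 to 3, and 3555 bp in Pdgfra+ nEnd replicate 1. Pdgfra+ nEnd replicates 2 and 3 had none. The point of highest coverage lay from -176 to -28 bp relative to the most upstream TSS in these 4 libraries, inside the printed window, and the same peaks overlapped the promoter window of Lhx1os, a long noncoding RNA gene beside it.

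The *Lhx1* peaks were among the weaker ones of their libraries. The percentile by total signal was 15.0, 14.2 and 7.51 in DP nEnd and 25.6 in Pdgfra+ nEnd replicate 1. By highest coverage it was 3.35, 6.05 and 4.45 in DP nEnd and 21.5 in Pdgfra+ nEnd replicate 1. The total signal was 1.32, 1.42 and 1.16 times that of the weakest listed peak in DP nEnd, and 2.95 times in Pdgfra+ nEnd replicate 1. The DP nEnd peaks therefore lay close to the lowest signal listed.

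Between Oct4+ nEnd and DP nEnd the *Lhx1* percentile differed by -12.2 points, with all 3 DP nEnd libraries above all 4 Oct4+ nEnd libraries (exact permutation p = 0.0286, the smallest possible; adjusted p = 0.471). This unadjusted threshold was passed with DP nEnd higher by 4.69% of all genes. Presence gave the same p by Fisher's exact test (adjusted p = 1), and a peak in every DP nEnd and no Oct4+ nEnd library was found for 1.94% of genes, or 423. DP nEnd minus Pdgfra+ nEnd was 3.70 points, with overlap (exact permutation p = 0.80), and its sign depended on the measure and on absent peaks being set to 0. It was -2.56 points by highest coverage (exact permutation p = 1), -13.3 by total signal over the libraries with the peak alone, and -0.558 without Pdgfra+ nEnd replicate 2 or 3. Among the 3477 strongest peaks of each library *Lhx1* was in none, so the difference from Oct4+ nEnd fell to 0. The weakest listed total signal was 50231 to 53198 in the DP nEnd libraries and 15732 to 29610 in those of Oct4+ nEnd, and the part of this in the result was not tested. The consensus list of DP nEnd holds the region at 4295 bp, with the start and end of the DP nEnd replicate 2 peak. Those of the other 2 populations do not hold it, and the list is no separate support for the peak.

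*Hnf4a* had a peak in 1 of 3 libraries of DP nEnd, 1 of 3 of Pdgfra+ nEnd and 0 of 4 of Oct4+ nEnd. The gene (ENSMUSG00000017950.16) spans chr2:163506808-163572910 on the plus strand, and its 5 TSS fall into an upstream promoter and a downstream group that starts 40009 bp away. DP nEnd replicate 2 had a peak of 3930 bp at percentile 7.93, and Pdgfra+ nEnd replicate 1 a peak of 2473 bp at percentile 22.9. Both lay at the upstream TSS at 163506808, and the downstream TSS had a peak in 0 of 10 libraries. These are the libraries with the most peaks of their populations (8836 and 10545), and the part of that in the result was not tested. Neither difference from Oct4+ nEnd passed (exact permutation p = 0.429 for each), and no consensus list holds an *Hnf4a* promoter peak.

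*Gsc* (ENSMUSG00000021095.5, chr12:104471209-104473330, minus strand, 1 TSS) had no promoter peak in any library, and the nearest peak lay from 275397 to 557592 bp away. *Hesx1* (ENSMUSG00000040726.10, chr14:26994416-27002329, plus strand, 2 TSS) had none either, with the nearest peak from 21116 to 37929 bp away. Both are also missing from the 3 consensus lists. A peak list holds only what passed the caller, so weaker H3K4me3 at these genes could not be detected here.

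**Figure D3:**
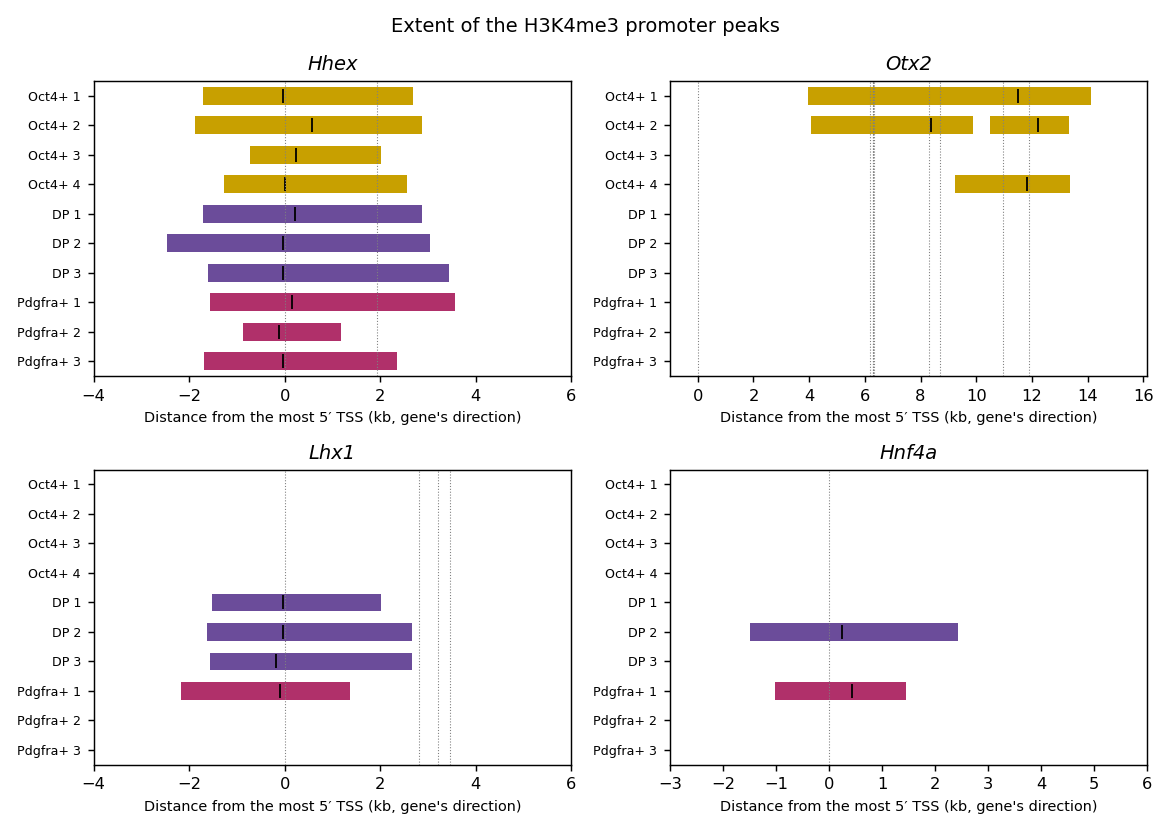
Extent of each promoter peak of *Hhex*, *Otx2*, *Lhx1* and *Hnf4a* (bars, coloured by population) in the 10 libraries, as distance in kb from the most 5′ annotated TSS in the direction of the gene. Short black lines are the points of highest coverage and dotted lines the annotated TSS (those of *Hnf4a* 40009 bp and more downstream are outside the panel), and no *Otx2* bar reaches its first TSS.

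By the exact counting rule, a peak in every library of one population and in none of another, 1 of 6 genes was called for DP nEnd over Oct4+ nEnd (*Lhx1*), and 0 in the other 5 directions. Over all genes the rule called 1.94% for DP nEnd over Oct4+ nEnd, 0.202% for Oct4+ nEnd over DP nEnd, 0.359% for Oct4+ nEnd over Pdgfra+ nEnd, 1.43% for Pdgfra+ nEnd over Oct4+ nEnd, 0.11% for DP nEnd over Pdgfra+ nEnd and 0.0046% for Pdgfra+ nEnd over DP nEnd. Percentiles above those of the other population in every library were seen, over all genes, in 2.25% for Oct4+ nEnd over DP nEnd, in 2.47% for Oct4+ nEnd over Pdgfra+ nEnd and in 10.1% for Pdgfra+ nEnd over Oct4+ nEnd. After adjustment over 21755 genes no gene of the annotation passed in any pair by any of the 4 measures. Unadjusted, 467 genes passed by presence between Oct4+ nEnd and DP nEnd, 390 between Oct4+ nEnd and Pdgfra+ nEnd, and 0 between DP nEnd and Pdgfra+ nEnd, where the design allows no p under 0.10. By percentile of total signal 1320 and 1387 genes passed unadjusted in the first and second of these pairs.

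The genes most like each of the 4 in their percentiles over the 10 libraries were listed by the mean absolute difference. For *Hhex* these were *Tprn* (5.72 percentile points), *Ippk* (5.72) and *Ankra2* (6.56). For *Otx2* they were *Irak3* (2.38), *Rinl* (2.77) and *Ooep* (3.11). *Slc25a44* (0.718), *Slc17a5* (1.17) and *Parp8* (1.29) were nearest to *Lhx1*, and *Mark1* (0.0612), *Idnk* (0.140) and *Fchsd1* (0.150) to *Hnf4a*, where most of the values compared are 0.

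Of 12 genes of HNF and partner factors, the Oct4+ nEnd libraries marked 2 to 6, the DP nEnd libraries 8 to 10 and the Pdgfra+ nEnd libraries 7 to 10. *Foxa2*, a forkhead factor of endoderm, had percentiles of 99.8, 99.8 and 99.8 in DP nEnd, 99.9, 98.2 and 99.9 in Pdgfra+ nEnd and no peak in Oct4+ nEnd. *Onecut2*, which encodes a CUT-homeodomain factor, was at 50.1, 51.3 and 45.1 in DP nEnd and 60.4, 24.7 and 53.3 in Pdgfra+ nEnd, also with no peak in Oct4+ nEnd. *Foxa1* and *Cebpa* were marked in 2 DP nEnd and 1 Pdgfra+ nEnd libraries, and the *Hnf4a* paralogue *Hnf4g* in none.

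*Nr5a2*, a nuclear receptor of pluripotent cells and of liver, went the other way, with percentiles of 96.2, 90.7, 13.7 and 84.8 in Oct4+ nEnd and no peak elsewhere. In all, 8 of the 12 had every DP nEnd library above every Oct4+ nEnd library. Over all genes the share was 12.5%, and over genes with a peak in the pair 25.6%. The reverse held for 1 of 12 (*Nr5a2*), against 2.25% and 4.62%. Of those 8, *Foxa2*, *Gata4*, *Gata6* and *Sox17* are also among the PrE markers counted above. The median difference over the 12 genes was -36.2 points for Oct4+ nEnd minus DP nEnd, and 0.312 for DP nEnd minus Pdgfra+ nEnd. Over all genes with a peak in the pair it was -9.05 and -0.829.

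Of 13 genes taken as HNF4A targets of visceral endoderm and liver, 9 had no promoter peak in any library, against 46.5% of all genes. Among the 9 were the apolipoprotein genes *Apoa1*, *Apob* and *Apoc3*, *Ttr* and *Afp*. The other 4 were the endocytic receptor genes *Amn*, *Cubn* and *Lrp2*, and *Apom*. *Amn* had a peak in 3 of 3 DP nEnd libraries (18.4, 29.3 and 32.6), but none in Oct4+ nEnd or Pdgfra+ nEnd. *Cubn*, whose protein pairs with that of *Amn*, was marked in 2 DP nEnd libraries alone. *Apom* was marked in Oct4+ nEnd replicates 1 and 4 (81.4 and 76.8) and DP nEnd replicate 2 (83.3), and in no Pdgfra+ nEnd library. *Lrp2* (megalin) was at 84.3 to 84.8 in DP nEnd, 82.9 to 91.3 in Pdgfra+ nEnd and 0 to 27.9 in Oct4+ nEnd. The median difference over the 13 genes was 0 in each pair, with most of them unmarked.

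A list of 14 AVE and organizer genes holds genes with which *Otx2*, *Lhx1*, *Gsc*, *Hhex* and *Hesx1* are expressed in the embryo. Of these, 5 had no peak in any library (*Cer1*, *Sfrp1*, *Sfrp5*, *Mixl1* and *T*), against 46.5% of all genes. The WNT antagonist genes *Dkk1* and *Frzb* had a peak in each of the 6 libraries with PDGFRA and in no Oct4+ nEnd library. *Dkk1* was at 35.5, 50.5 and 33.6 in DP nEnd and at 63.9, 13.8 and 43.9 in Pdgfra+ nEnd. *Lefty1*, a NODAL inhibitor gene, was marked in the same 3 libraries as *Otx2*, with 42.2, 30.9, 0 and 26.4 in Oct4+ nEnd and no peak elsewhere. *Nodal* itself was at 95.7 to 99.1 in Oct4+ nEnd, at 30.4 to 37.9 in DP nEnd and had no peak in Pdgfra+ nEnd. Every DP nEnd library was above every Oct4+ nEnd library for 5 of the 14, against 12.5% of all genes, and the reverse held for 1, *Nodal*, against 2.25%. The median difference between them was 0.

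Of 18 homeobox relatives of the 6 genes, 8 had no peak in any library, including *Crx* and *Isl1*, against 46.5% of all genes. Another 4 were marked in Pdgfra+ nEnd replicate 1 alone. *Otx1*, the paralogue of *Otx2*, showed the opposite pattern, at 41.0, 51.2 and 29.5 in DP nEnd, 56.0, 41.9 and 53.1 in Pdgfra+ nEnd, and marked in Oct4+ nEnd replicate 1 alone (19.2). *Pitx1* had a peak in every library of both PDGFRA-positive populations (52.3 to 92.1) and in no Oct4+ nEnd library. *Lhx4* was marked in the same 6 and at 3.64 in Oct4+ nEnd replicate 1. The median difference over the 18 was 0 between Oct4+ nEnd and DP nEnd and -1.10 between Oct4+ nEnd and Pdgfra+ nEnd. Of 9 cofactor genes of LIM, HHEX and nuclear receptor proteins, 8 were marked in all 10 libraries, and *Tle1*, a Groucho corepressor, was missing from Oct4+ nEnd replicate 3 alone. Their median difference was -17.7 points for Oct4+ nEnd minus DP nEnd, against -6.89 over all genes marked in every library.

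**Figure D4:**
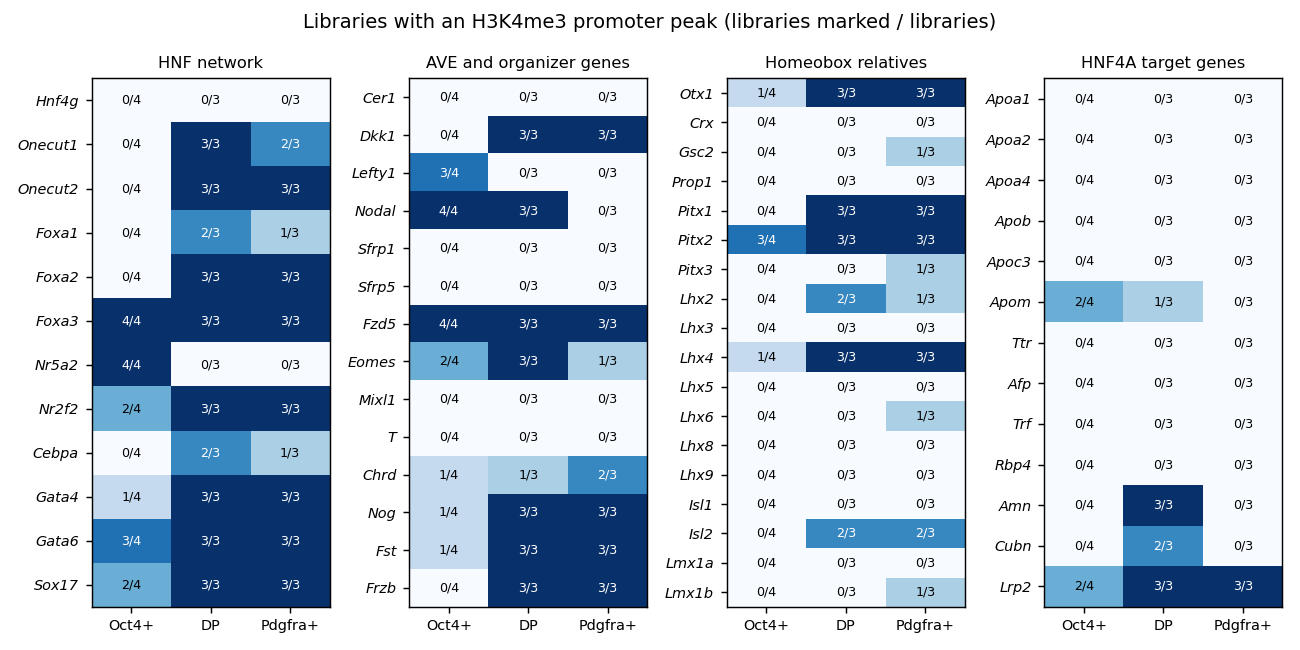
Number of libraries with a promoter peak, of all libraries of the population, for 12 HNF network genes, 14 AVE and organizer genes, 18 homeobox relatives and 13 HNF4A target genes, with darker blue for a larger share. Most HNF network genes are filled in DP nEnd and Pdgfra+ nEnd, and 9 of the 13 target genes are empty throughout, against 46.5% of all genes.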

How the data were processed

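The authors sorted the cells, prepared CUT&Tag libraries with an H3K4me3 antibody, computed coverage with BEDtools and called peaks per library with SEACR (stringent setting) against IgG. The labels name Bowtie2, SAMtools 1.12 and bedtools 2.26.0, and the build mm10 (GRCm38). The deposited signal of each peak is unscaled coverage, as its sum and its highest value. The deposited consensus lists, made with DiffBind, hold positions and a constant, and were used for presence. Depth is unknown, so no counting interval was computed.

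Genes and TSS were those of GENCODE release M21 on chromosomes 1 to 19 and X (93196 TSS of 21755 protein-coding genes). The strongest promoter peak of a gene gave its percentiles, and widths were summed over its promoter peaks. Presence was tested by Fisher's exact test and the other measures by exact permutation of libraries, two-sided, for all genes, with Benjamini-Hochberg adjustment over all of them, and a test passed at p under 0.05. The tests were tried on simulated data. Similar genes were the 3 with the smallest mean absolute difference in percentile, leaving out genes that share a peak. The genes, the lists and the tests were chosen with earlier results of these data known. Some genes of the HNF list are not reported here and were left out without regard to their values, so its counts and medians describe the 12 genes kept and not the whole list. Genes of lists were named by the call rules or as members of lists of 20 or fewer. Motifs and CG dinucleotides were counted in RefSeq windows, and the classes of CG content, the medians over marked genes and the ranks from the top were chosen after seeing the data. The work was done with scipy 1.17.1, pandas 2.3.3 and numpy 2.4.6 under Python 3.11.15, and plots with matplotlib 3.10.9.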

Additional observations from a re-analysis of the deposited data

How the results depend on the processing

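A window of 2500 bp on each side, a cover of 50% of the window and protein-coding transcripts alone changed no direction and no call of the 6 genes. With 3477 peaks per library, the genes marked in every DP nEnd and no Oct4+ nEnd library went from 1 to 0. *Lhx1* between Oct4+ nEnd and DP nEnd went to 0 (exact permutation p = 1). *Hhex* in that pair went to -36.4 (exact permutation p = 0.0286, unadjusted and the smallest possible). Between DP nEnd and Pdgfra+ nEnd *Hhex* went from 24.1 to 44.7 (exact permutation p = 0.10), with absent peaks at 0. Between Oct4+ nEnd and Pdgfra+ nEnd it turned to 8.30 by total signal and 9.30 by highest coverage. *Otx2* went from 31.5 to 4.73 against either population, and *Hhex* was marked in 7 of 10 libraries rather than 10. Over the libraries with the peak alone, *Lhx1* between DP nEnd and Pdgfra+ nEnd was -13.3 points, against 3.70 with absent peaks at 0. Over genes with a peak in the pair alone, 25.6% rather than 12.5% had every DP nEnd library above every Oct4+ nEnd library.

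The deviations of same-numbered libraries had correlations from -0.203 to 0.209 (3 of 9 over 0.1), which does not settle whether these libraries deviate together. The replicate block compared same-numbered libraries, by exact sign flips of their differences, and so left out Oct4+ nEnd replicate 4. With it, *Lhx1* between Oct4+ nEnd and DP nEnd stayed at -12.2 points (exact sign-flip test, p = 0.25, the smallest it can give). *Hhex* between Oct4+ nEnd and Pdgfra+ nEnd was 3.71 by highest coverage, the same value as without Oct4+ nEnd replicate 4 and no block.

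Leaving out each library in turn, the difference by total signal ranged for *Hhex* from -42.7 to -23.2 (Oct4+ nEnd and DP nEnd), 17.2 to 28.7 (DP nEnd and Pdgfra+ nEnd) and -18.6 to 0.886 (Oct4+ nEnd and Pdgfra+ nEnd, turned without Oct4+ nEnd replicate 3). For *Lhx1* it ranged from -14.6 to -10.9 between Oct4+ nEnd and DP nEnd (exact permutation p from 0.0667 to 0.10, where such splits allow none under 0.05) and from -0.558 to 12.2 between DP nEnd and Pdgfra+ nEnd (turned without Pdgfra+ nEnd replicate 2 or 3). For *Hnf4a* between DP nEnd and Pdgfra+ nEnd it ranged from -8.80 to 2.64 (turned without Pdgfra+ nEnd replicate 1), and for *Otx2* from 20.6 to 42.0. The genes called went from 0 to 1 for Oct4+ nEnd over DP nEnd and over Pdgfra+ nEnd without Oct4+ nEnd replicate 3 (*Otx2*), and for DP nEnd over Pdgfra+ nEnd without Pdgfra+ nEnd replicate 1 (*Lhx1*). Among the other measures, directions turned between Oct4+ nEnd and Pdgfra+ nEnd for *Hhex* by highest coverage (-14.3 to 5.48 points) and width (-655 to 877 bp), between DP nEnd and Pdgfra+ nEnd for *Hnf4a* by highest coverage (-7.43 to 3.96) and width (-824 to 1310 bp), and for *Lhx1* by highest coverage (-6.14 to 4.62), and none of these passed a test.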
